A study of Homo sapiens with 12 samples.

Results

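The genes of the unfolded protein response and of protein folding in the endoplasmic reticulum (ER) were followed as a set of 33 members in MV3 melanoma cells. Members were taken from a list of symbols and matched exactly to the gene names of the authors' variance-stabilised table, and their identifiers were looked up in the table of raw counts. All 33 were found among 58288 genes, and all 33 were among the 14088 genes that passed the filter on low counts. The list holds 5 sensors and transcription factors, 3 chaperones of the HSP70 and HSP90 classes, 5 DnaJ co-chaperones or their partner, 2 secreted stress proteins, 4 disulfide enzymes, 9 components of ER-associated degradation, and 5 proteins of translocation, export or other ER tasks.

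MV3 is an established line from a lymph node metastasis of a human melanoma, and RNA was read from 3 libraries in each of 4 groups, 12 in all. Cells maintained in DMEM with 10% serum were seeded, held for 3 h in RPMI with 1% serum, and then given one of the media for 24 h. Ctrl cells received fresh RPMI that no cell had conditioned. M0 medium had been conditioned by THP-1 cells, a monocyte line, differentiated to macrophages with the phorbol ester PMA. M1 medium came from such M0 cells polarised further with LPS and IFNγ, and M2 medium from M0 cells polarised with IL4 and IL13. Whether PMA, LPS or the cytokines were carried over in the media was not measured here, so that the stimuli and the macrophage products cannot be told apart. The comparison of M0, M1 and M2 was the main question stated for the series, and the same M0 and Ctrl libraries serve in several comparisons. Because nothing says that the replicates were separate cultures, the p-values measure the spread between these libraries, which may be technical.

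When unfolded proteins gather in the ER, the membrane sensors ERN1 (IRE1), EIF2AK3 (PERK) and ATF6 signal to the nucleus. ERN1 splices the XBP1 transcript so that it encodes an active transcription factor, ATF6 is cleaved in the Golgi to release one, and EIF2AK3 slows translation while favouring ATF4. XBP1 and ATF6 act through the ER stress element and related sequences to raise chaperones such as HSPA5 (BiP), folding enzymes, and the machinery that exports misfolded proteins for degradation. The deposited counts are per gene and do not separate spliced from unspliced XBP1, nor do they report cleavage of ATF6 or kinase activity.

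Members were matched by symbol and not by the ER stress element. The list is of genes of the response that acts through this element, so that a high share among them is not independent support. The element is shown here for the members that hold it and had the largest absolute change between M0 and Ctrl. The 250 bases upstream of each start in the RefSeq promoter table (GRCh38.p14) were searched on both strands, and 30 of the 33 members matched that table with 34 promoters. The long form of the ER stress element, CCAAT and CCACG with any 9 bases between them, lay in 6 of 34 member promoters (17.6%) and in 26 of 35116 promoters of all genes (0.0740%). Its second form, ATTGG and CCACG with any 1 base between them, lay in 3 member promoters (8.82%) and in 18 of all (0.0513%). Either form lay in 9 of 34 member promoters (26.5%), those of CRELD2, ERO1B, HERPUD1, HSP90B1, HSPA5, HYOU1, PDIA6, SDF2L1 and XBP1, and in 44 of 35116 promoters of all genes (0.125%). The XBP1-type core TGACGTGG lay in 2 member promoters (5.88%), of DNAJC10 and HYOU1, against 0.612% of all promoters, and in HYOU1 it overlapped the second form of the element. The ATF4-type composite TGATGNAAT lay in 0 member promoters and in 312 of all (0.888%). A match of letters is not a tested binding site, and its absence says only that these letters are not in the window. Stretches are given 5′ to 3′ on the gene's strand, with the fixed bases of either form, on either strand, in capitals, for HERPUD1 (chr16:56931985-56932047, plus strand), XBP1 (chr22:28800598-28800661, minus strand), SDF2L1 (chr22:21642074-21642164, plus strand), HSPA5 (chr9:125241351-125241449, minus strand), HYOU1 (chr11:119057234-119057430, minus strand) and ERO1B (chr1:236282143-236282208, minus strand):
HERPUD1: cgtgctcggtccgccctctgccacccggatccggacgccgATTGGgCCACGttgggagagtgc
XBP1: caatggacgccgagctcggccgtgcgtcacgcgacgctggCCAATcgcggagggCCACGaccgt
SDF2L1: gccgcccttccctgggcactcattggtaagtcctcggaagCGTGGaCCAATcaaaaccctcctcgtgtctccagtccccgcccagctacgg
HSPA5: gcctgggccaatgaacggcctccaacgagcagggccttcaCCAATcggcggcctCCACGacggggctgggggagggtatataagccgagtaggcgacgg
HYOU1: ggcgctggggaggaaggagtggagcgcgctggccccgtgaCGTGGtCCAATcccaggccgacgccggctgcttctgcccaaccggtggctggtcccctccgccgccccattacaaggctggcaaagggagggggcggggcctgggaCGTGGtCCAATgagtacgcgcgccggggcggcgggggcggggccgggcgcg
ERO1B: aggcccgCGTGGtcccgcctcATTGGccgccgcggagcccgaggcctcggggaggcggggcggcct

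HYOU1 thus holds 2 copies of the second form and HERPUD1 and SDF2L1 1 each, whereas HSPA5, XBP1 and ERO1B hold the long form. The change of ERO1B between M0 and Ctrl did not pass edgeR's test (log2 fold change 0.45, adjusted p = 0.149). The 9 members with an element did not move as one between M0 and Ctrl: 4 were higher, 3 lower and 2 did not pass the test, and among the 21 matched members without one 8 were higher, 5 lower and 8 did not pass. Of all genes tested 61.7% were called in that comparison (31.1% higher, 30.6% lower). In M1 against M0, 6 of the 9 were higher and 1 lower, and 20 of the 21 others were higher, with 52.2% of all genes called (25.5% higher, 26.7% lower).

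Library totals ran from 21788397 to 42921242 counts, so that 3 counts, the limit a count of 0 allows, corresponded to between 0.138 and 0.0699 CPM of the unscaled total. CPM, the level used below, is a count set to a common library total after scaling by the trimmed mean of M-values (TMM). Ctrl replicate 1 stood apart by mitochondrial transcripts (0.0357% of counts against at most 0.00533% elsewhere), and M2 replicate 2 by 3759 genes found in it alone (160 to 453 in the others). Of 8 melanocytic markers, MITF passed the filter, with at most 3.27 CPM. TYR and S100B were at 0 in all 12 libraries, and PMEL, MLANA, DCT, TYRP1 and SOX10 reached at most 0.125 CPM. The labelled melanoma identity is therefore not visible in them. Their summed level was 0.837 to 1.51 CPM in Ctrl, 3.02 to 3.37 in M0, 1.88 to 2.43 in M1 and 2.16 to 2.33 in M2, and its part in the results was not tested. Of 14 macrophage markers none passed the filter, AIF1 was at 0 in all 12 libraries, and the sum was 0.737 to 1.05 CPM in Ctrl, 0.605 to 0.911 in M0, 0.634 to 0.982 in M1 and 0.429 to 0.709 in M2.

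**Figure D1:**
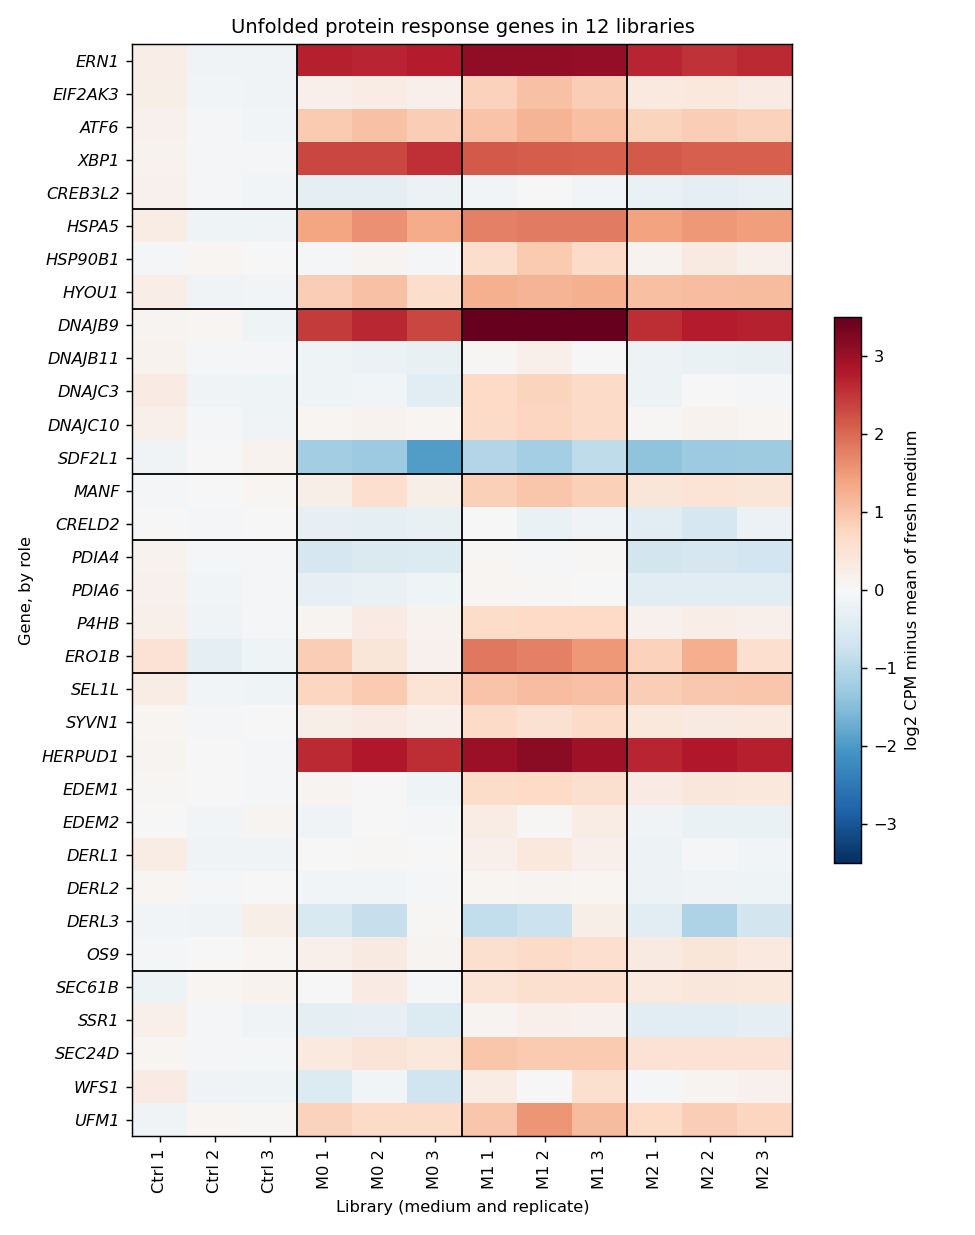
Heat map of the 33 members (rows, ordered by role) in the 12 libraries (columns, by medium), coloured by log2 CPM minus the mean of the 3 Ctrl libraries. ERN1, XBP1, DNAJB9 and HERPUD1 are high in all 9 conditioned-medium libraries, SDF2L1 is low in them, and most other members are highest in the 3 M1 libraries.

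By mean level, M1 medium was the highest group for most of the set. The mean was highest in M1 for 28 of 33 members, in Ctrl for 4 (CREB3L2, CRELD2, SDF2L1 and DERL3), in M0 for 1 (XBP1) and in M2 for none. How many of all genes had their highest mean in M1 was not counted, so that no background stands beside these counts. A highest mean is also not a test. PDIA4 had means of 167 CPM in M1 and 166 in Ctrl, and 9 of the 33 members did not pass in M1 against Ctrl. For 19 members all 3 M1 libraries lay above each of the 9 others, a pattern that 12.8% of all genes tested showed. Summed over the members, the level was 5561 ± 442 CPM in Ctrl, 8011 ± 560 in M0, 10805 ± 401 in M1 and 8316 ± 253 in M2 (mean ± SD, n = 3), with HSPA5 and HSP90B1 adding the most counts. RNA was taken from whole cultures, so that fewer cells with a transcript and less of it per cell cannot be told apart. Tests below are edgeR's quasi-likelihood test over all 14088 genes with Benjamini-Hochberg adjustment and a threshold of 0.05, and ± after a log2 fold change is the standard error from the spread of 3 and 3 libraries.

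Between M1 and M0 medium, the chaperones, co-chaperones and degradation factors rose together by modest amounts. Of the 33 members 28 were higher in M1, 1 (XBP1) was lower, and 4 (ATF6, SDF2L1, CRELD2 and DERL3) did not pass. The background was 52.2% of genes called, 25.5% higher and 26.7% lower. The members' median log2 fold change was 0.42, with -0.01 over all genes. The groups did not overlap for 31 members (background 59.2%). A smaller number, 8 members, changed by at least 1.5-fold, against 21.5% of all genes, so that by size the set lay near the background. Removing 1 library at a time ended the call of SEL1L, EDEM2, DERL1 or DERL2 and of no other member, and without M0 replicate 3 and M2 replicate 2 together 26 were higher and 1 lower.

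Few members passed the test between M2 and M0 medium. WFS1, EDEM1 and SEC61B were higher, XBP1 was lower, and the other 29 did not pass, with 25.2% of all genes called (12.5% higher, 12.7% lower). The median log2 fold change was 0.06 in the members and 0.00 in all genes, and 17 members did not overlap between the groups (background 46.5%). The count of higher members was 8 without M0 replicate 2, 5 without Ctrl replicate 1, and 1 without M0 replicate 1, M0 replicate 3 or any 1 of the M2 replicates, and 2 members were lower without Ctrl replicate 1. None of the 4 calls was kept in all alternative settings. Those of XBP1 and EDEM1 were lost only without M0 replicate 3 and M2 replicate 2 together, where none of the members passed edgeR's test. In that setting 1 was higher and 1 lower at an unadjusted p under 0.05, and DESeq2 also called 0. That setting lowered the genes called from 3553 to 520. With 1 library left out they ranged from 1595 (M0 replicate 3) to 4210 (Ctrl replicate 1). They were 1905 without M2 replicate 3 and 1933 without M2 replicate 2.

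Compared directly, M1 medium exceeded M2 medium in 25 members, none was lower, and 8 did not pass, with 32.5% of all genes called (15.9% higher, 16.6% lower). At an unadjusted p under 0.05, 0 members were lower by edgeR's test, and DESeq2 called 0. The median log2 fold change was 0.33 in the members against -0.03 in all genes, and 29 did not overlap between the groups (background 50.1%). The members that did not pass were XBP1, SDF2L1, CRELD2, DERL3, HYOU1, SEL1L, SEC61B and WFS1.

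Against fresh medium, the M0 medium moved members in both directions. ERN1, HERPUD1, DNAJB9 and XBP1 rose by more than 5-fold, HSPA5 rose by 2.69-fold, ATF6, HYOU1, SEL1L and UFM1 rose by 1.64 to 1.90-fold, and SDF2L1 fell to 0.361 times its Ctrl level. In all 13 members were higher, 8 lower and 12 did not pass, where 61.7% of genes were called (31.1% higher, 30.6% lower), so that the share of members called was near the background. The median log2 fold change was 0.08 (all genes 0.00), 21 members did not overlap (background 64.4%), and 10 changed by at least 1.5-fold (background 32.5%). Without Ctrl replicate 1, the library with more mitochondrial transcripts, 16 members were higher.

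In M1 against fresh medium 23 members were higher, 1 (SDF2L1) lower and 9 did not pass, with 70.2% of genes called, 35.2% higher and 35.0% lower, and a median log2 fold change of 0.67. The groups did not overlap for 22 members (background 71.3%), and 21 changed by at least 1.5-fold (background 42.7%). In M2 against fresh medium 19 were higher, 9 lower and 5 did not pass, with 66.5% of genes called, 34.1% higher and 32.4% lower, and a median of 0.32. Here 28 members did not overlap (background 71.5%), and 12 changed by at least 1.5-fold (background 37.8%). These comparisons and M0 against Ctrl share the Ctrl libraries, so that their values are given side by side and not as independent evidence.

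**Figure D2:**
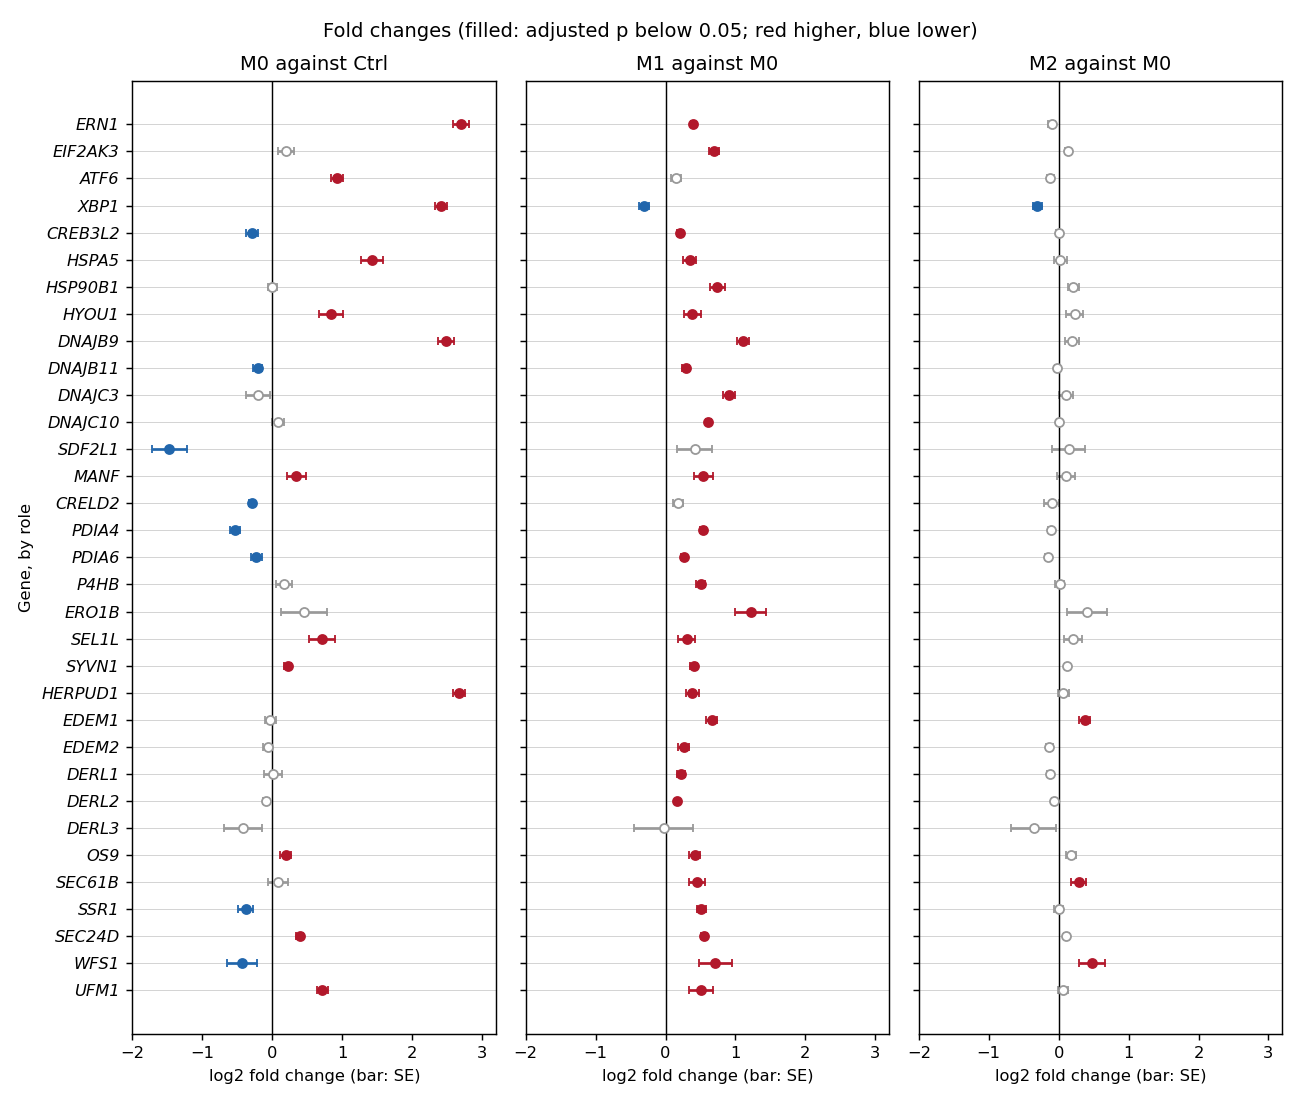
Log2 fold change of each of the 33 members in M0 against Ctrl, M1 against M0 and M2 against M0 (horizontal axis; bars are standard errors from 3 and 3 libraries; filled points passed the adjusted p of 0.05). The first panel spreads to both sides of 0, 28 filled points lie to the right in the second, and 3 in the third.

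Among the sensors, ERN1, the endonuclease that splices XBP1 (chr17:64039142-64130819, minus strand, GRCh38), had 15.7, 12.4 and 12.4 CPM in the Ctrl libraries and 88.0, 85.2 and 90.5 CPM in M0. ERN1 had 116, 115 and 115 CPM in M1 and 84.8, 78.0 and 82.9 CPM in M2. It was thus low in all 3 Ctrl libraries, and the 3 M1 libraries lay above all M0 and M2 libraries. It rose 6.47-fold from Ctrl to M0 (log2 fold change 2.69 ± 0.12, adjusted p = 6.82e-13) and a further 1.31-fold in M1 over M0 (log2 fold change 0.39 ± 0.03, adjusted p = 5.27e-04), and it was at a log2 difference of -0.10 (adjusted p = 0.347) in M2 against M0. EIF2AK3, the kinase that phosphorylates the translation factor eIF2α, had 32.9, 26.7 and 26.2 CPM in the Ctrl libraries and 32.2, 34.3 and 32.1 CPM in M0. EIF2AK3 had 49.6, 58.3 and 51.4 CPM in M1 and 35.8, 36.9 and 35.1 CPM in M2. Its M1 libraries stood above the 9 others, and Ctrl replicate 1 was within the M0 range. EIF2AK3 rose in M1 against M0 (log2 fold change 0.69 ± 0.08, adjusted p = 1.51e-05) and did not pass in M0 against Ctrl (log2 fold change 0.19 ± 0.11, adjusted p = 0.0741). ATF6, the sensor that is itself a transcription factor, had 160.3, 140.0 and 136 CPM in the Ctrl libraries and 272, 293 and 263 CPM in M0. ATF6 had 291, 329 and 299 CPM in M1 and 247, 261 and 254 CPM in M2. It rose in M0 against Ctrl (log2 fold change 0.92 ± 0.09, adjusted p = 3.78e-08), where the groups did not overlap, and M1 replicates 1 and 3 lay near the highest M0 library, with 0.15 (adjusted p = 0.0951) in M1 against M0.

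XBP1, the transcription factor whose message ERN1 splices (chr22:28794555-28800597, minus strand), had 63.3, 55.7 and 56.7 CPM in the Ctrl libraries and 297, 298 and 341 CPM in M0. XBP1 had 258, 252 and 248 CPM in M1 and 260.1, 249.8 and 249 CPM in M2. It was the 1 member that fell in M1 against M0 (log2 fold change -0.31 ± 0.07, adjusted p = 0.00144): all 3 M0 libraries lay above all M1 and M2 libraries. It also fell in M2 against M0 (log2 fold change -0.30 ± 0.07, adjusted p = 0.00534), although without M0 replicate 3 and M2 replicate 2 together that was -0.22 with an adjusted p of 0.101, while M1 and M2 had near-equal means of 253 and 253 CPM (adjusted p = 0.989). Against fresh medium it was higher in every conditioned medium, by 5.33-fold in M0, 4.31-fold in M1 and 4.32-fold in M2. ERN1 and XBP1 therefore moved apart between M0 and M1: the enzyme's message rose and that of its substrate fell. CREB3L2, an ER-anchored transcription factor, was highest in Ctrl at 194 CPM, fell in M0 (log2 fold change -0.29 ± 0.09, adjusted p = 0.00222) and rose in M1 against M0 by a log2 fold change of 0.21.

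**Figure D3:**
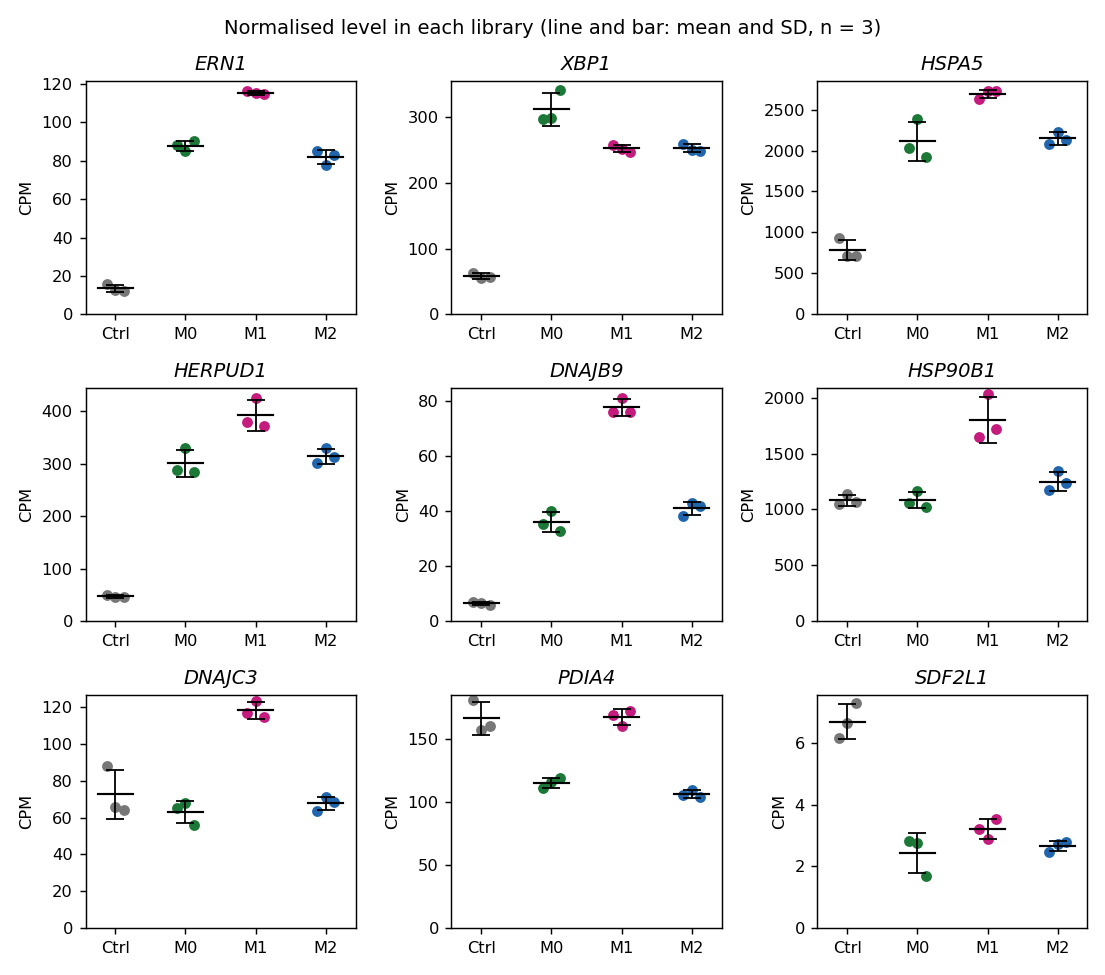
CPM of ERN1, XBP1, HSPA5, HERPUD1, DNAJB9, HSP90B1, DNAJC3, PDIA4 and SDF2L1 in each library (dots) by medium, with the mean and SD of 3 (horizontal line and bar). In the ERN1, HERPUD1 and DNAJB9 panels levels step up from Ctrl to M0 and M2 and again to M1, XBP1 is highest in M0, and HSP90B1 and DNAJC3 are raised in M1.

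Among the main ER chaperones HSPA5 and HYOU1 rose in M0 medium, and HSP90B1 did not pass the test there. HSPA5, the HSP70-class chaperone that also holds the sensors inactive (chr9:125234853-125241330, minus strand), had 931, 707 and 716 CPM in the Ctrl libraries and 2037, 2381 and 1923 CPM in M0. HSPA5 had 2633, 2722 and 2724 CPM in M1 and 2082, 2231 and 2132 CPM in M2. Every conditioned-medium library lay above every Ctrl library, and every M1 library above every M0 and M2 library. It rose in M0 against Ctrl (log2 fold change 1.43 ± 0.16, adjusted p = 8.01e-09) and in M1 against M0 (log2 fold change 0.35 ± 0.09, adjusted p = 0.00719). Its rise in M1 against M2 (log2 fold change 0.33 ± 0.03, adjusted p = 0.0177) no longer passed without M2 replicate 1 (adjusted p = 0.0533) or M2 replicate 3 (0.0549). HSP90B1 (GRP94, chr12:103930107-103953645, plus strand), the HSP90-class chaperone of the ER, had 1047, 1138 and 1064 CPM in the Ctrl libraries and 1057, 1162 and 1024 CPM in M0. HSP90B1 had 1652, 2038 and 1724 CPM in M1 and 1175, 1340.3 and 1233 CPM in M2. Its Ctrl and M0 libraries overlapped, and the M1 libraries were above the rest. In M0 it was at 0.998 times its Ctrl level (adjusted p = 0.978), whereas it rose 1.67-fold in M1 over M0 (log2 fold change 0.74 ± 0.11, adjusted p = 3.43e-06) and 1.44-fold in M1 over M2 (log2 fold change 0.53 ± 0.11, adjusted p = 1.52e-04). In M2 against Ctrl it passed narrowly (log2 fold change 0.21 ± 0.07, adjusted p = 0.0355) and no longer did without Ctrl replicate 1 (0.16, adjusted p = 0.109), Ctrl replicate 3 (0.0904), M2 replicate 2 (0.150) or M2 replicate 3 (0.0628).

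Per length, HSPA5 stood at 201, 541, 689 and 549.7 CPM per kb in Ctrl, M0, M1 and M2, and HSP90B1 at 231, 230.2, 384 and 266 CPM per kb in Ctrl, M0, M1 and M2. These values divide CPM by the union of annotated exons, and the lengths of the transcripts expressed were not measured. On this scale the pair was of similar abundance in Ctrl cells, and HSPA5 was the more abundant in each conditioned medium. In CPM alone HSP90B1 was the higher in Ctrl, at a mean of 1083 against 785. HYOU1 (GRP170), a large HSP70-like protein that serves as nucleotide exchange factor for HSPA5, rose in M0 against Ctrl (log2 fold change 0.84 ± 0.17, adjusted p = 3.49e-06), rose in M1 against M0 (log2 fold change 0.38 ± 0.12, adjusted p = 0.00467), and did not pass in M1 against M2 (0.16, adjusted p = 0.247).

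Of the co-chaperones and their partner, which drive the HSPA5 cycle, 4 of 5 rose in M1 over M0 (background 25.5% higher). DNAJB9 (ERdj4, chr7:108569568-108574850, plus strand), which restrains ERN1 by bringing HSPA5 to it, had 6.80, 6.70 and 5.72 CPM in the Ctrl libraries and 35.4, 40.1 and 32.7 CPM in M0. DNAJB9 had 76.0, 81.0 and 75.9 CPM in M1 and 38.4, 43.1 and 41.7 CPM in M2. The groups Ctrl, M0 and M1 were fully separate, as were M1 and M2, and M0 and M2 overlapped. DNAJB9 rose 5.60-fold in M0 over Ctrl (log2 fold change 2.49 ± 0.12, adjusted p = 7.70e-12) and 2.16-fold in M1 over M0 (log2 fold change 1.11 ± 0.09, adjusted p = 5.98e-08), which made it 12.1-fold higher in M1 than in Ctrl (log2 fold change 3.59 ± 0.08, adjusted p = 6.15e-14). DNAJC3 (p58IPK), an inhibitor of eIF2α kinases and a lumenal co-chaperone, had 88.2, 65.6 and 64.4 CPM in the Ctrl libraries and 65.2, 67.9 and 56.0 CPM in M0. DNAJC3 had 117, 124 and 115 CPM in M1 and 63.9, 71.2 and 68.3 CPM in M2. Ctrl replicate 1 was the highest library outside M1, and all M1 libraries lay above it. DNAJC3 did not pass in M0 against Ctrl (-0.21, adjusted p = 0.1) but rose in M1 against M0 (log2 fold change 0.91 ± 0.09, adjusted p = 5.75e-06) and in M1 against M2 (log2 fold change 0.80 ± 0.06, adjusted p = 3.15e-05).

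DNAJC10 (ERdj5), a reductase that loosens disulfides of proteins bound for degradation, had 376, 321 and 307 CPM in the Ctrl libraries and 347, 362 and 352 CPM in M0. DNAJC10 had 532, 565 and 527 CPM in M1 and 346, 364 and 352 CPM in M2. All M1 libraries lay above the 9 others, as for DNAJC3, and its log2 fold change was 0.61 (adjusted p = 4.97e-06) over M0 and 0.61 (adjusted p = 8.15e-06) over M2. SDF2L1, a partner of DNAJB11 that prolongs the HSPA5 cycle, had 6.17, 6.63 and 7.29 CPM in the Ctrl libraries and 2.83, 2.75 and 1.68 CPM in M0. SDF2L1 had 3.22, 2.88 and 3.55 CPM in M1 and 2.47, 2.73 and 2.79 CPM in M2. All Ctrl libraries were above all others, the reverse of HSPA5. It fell in M0 (log2 fold change -1.47 ± 0.25, adjusted p = 2.27e-06), M1 (log2 fold change -1.05 ± 0.11, adjusted p = 2.45e-05) and M2 (log2 fold change -1.33 ± 0.09, adjusted p = 3.62e-06) against Ctrl, and at 0.42 (adjusted p = 0.0601) it did not pass in M1 against M0. DNAJB11 (ERdj3) itself fell slightly in M0 (log2 fold change -0.21 ± 0.06, adjusted p = 0.0190) and rose in M1 against M0 (log2 fold change 0.29 ± 0.05, adjusted p = 0.00338).

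The secreted members MANF and CRELD2 are small proteins released on ER stress. MANF rose in M0 (log2 fold change 0.34 ± 0.14, adjusted p = 0.00525) and again in M1 over M0 (log2 fold change 0.54 ± 0.14, adjusted p = 1.80e-04). CRELD2 instead fell in M0 (log2 fold change -0.30 ± 0.04, adjusted p = 0.0203) and M2 (log2 fold change -0.39 ± 0.11, adjusted p = 0.00305) against Ctrl and did not pass in M1 against M0 (0.17, adjusted p = 0.167).

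The disulfide enzymes rose in M1 over both M0 and M2, all 4 of 4 in each comparison (background 25.5% and 15.9% higher). PDIA4 (ERp72, chr7:149003062-149028641, minus strand), a protein disulfide isomerase, had 181, 157 and 160.4 CPM in the Ctrl libraries and 111, 116 and 119 CPM in M0. PDIA4 had 169, 161 and 172 CPM in M1 and 105, 109.8 and 104 CPM in M2. Its M1 libraries lay within the range of Ctrl, and its M0 and M2 libraries below both. PDIA4 fell in M0 (log2 fold change -0.53 ± 0.07, adjusted p = 3.98e-06) and M2 (log2 fold change -0.65 ± 0.07, adjusted p = 3.51e-07) against Ctrl, was at 0.01 (adjusted p = 0.913) in M1 against Ctrl, and rose in M1 over M2 (log2 fold change 0.65 ± 0.04, adjusted p = 1.48e-06). PDIA6, which reduces the sensors' disulfides, was likewise lowest in M0 and M2, at a log2 fold change of -0.23 (adjusted p = 0.00770) in M0 against Ctrl and 0.26 (adjusted p = 0.00419) in M1 against M0. P4HB (PDI) had 138, 155, 219.7 and 156 CPM per kb in Ctrl, M0, M1 and M2, above PDIA4 and PDIA6 in each group. Isomerases outside the members were not scaled by length. P4HB rose in M1 over M0 (log2 fold change 0.51 ± 0.06, adjusted p = 6.52e-05). ERO1B, an oxidase that recharges the isomerases, was scarce, with 1.96, 1.07 and 1.22 CPM in the Ctrl libraries and 2.53, 1.86 and 1.54 CPM in M0. ERO1B had 5.07, 4.77 and 4.04 CPM in M1 and 2.47, 3.41 and 2.07 CPM in M2. The 3 M1 libraries were above the rest, and Ctrl and M0 overlapped. It had the largest change of the members in M1 against M0 (log2 fold change 1.22 ± 0.22, adjusted p = 5.26e-04), and its rise over M2 (log2 fold change 0.81 ± 0.23, adjusted p = 0.0119) did not pass without M2 replicate 3 (0.67, adjusted p = 0.0631).

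In ER-associated degradation 8 of 9 members were higher in M1 than in M0 (background 25.5% higher). HERPUD1, which organises the HRD1 ubiquitin ligase (chr16:56932048-56944863, plus strand), had 50.3, 46.6 and 45.2 CPM in the Ctrl libraries and 288, 330.3 and 284 CPM in M0. HERPUD1 had 379.5, 426 and 371 CPM in M1 and 301, 329 and 313 CPM in M2. Each conditioned-medium library was above 5 times any Ctrl library, and the M1 libraries were the highest. It rose 6.35-fold in M0 over Ctrl (log2 fold change 2.67 ± 0.08, adjusted p = 3.91e-13) and 1.30-fold in M1 over M0 (log2 fold change 0.38 ± 0.09, adjusted p = 5.33e-04). SEL1L, the adaptor of that ligase, rose 1.64-fold in M0 over Ctrl (log2 fold change 0.71, adjusted p = 4.13e-05). Its rise in M1 over M0 (log2 fold change 0.30 ± 0.13, adjusted p = 0.0298) did not pass without M0 replicate 3 (0.21, adjusted p = 0.109) or M1 replicate 2 (0.29, 0.0647). SYVN1 (HRD1), the ligase, rose in M1 over M0 (log2 fold change 0.40 ± 0.05, adjusted p = 6.06e-05). EDEM1, which extracts mannose-trimmed glycoproteins for disposal, had 41.4, 40.4 and 38.8 CPM in the Ctrl libraries and 42.7, 39.8 and 35.9 CPM in M0. EDEM1 had 62.2, 64.9 and 59.6 CPM in M1 and 48.7, 52.6 and 52.1 CPM in M2. Ctrl and M0 overlapped, M2 lay above both, and M1 above all. EDEM1 rose in M1 (log2 fold change 0.66 ± 0.08, adjusted p = 3.01e-06) and in M2 (log2 fold change 0.37 ± 0.08, adjusted p = 0.00268) over M0, and the second of these did not pass without M0 replicate 3 and M2 replicate 2 together (0.29, adjusted p = 0.0570).

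OS9, a lectin that hands glycoproteins to SEL1L, rose in M1 over M0 (log2 fold change 0.42 ± 0.07, adjusted p = 1.32e-04). EDEM2, DERL1 and DERL2 rose in M1 over M0 by 0.26, 0.22 and 0.16 on the log2 scale. For DERL1, a channel component, 6 of the 12 removals of 1 library ended that call, with adjusted p up to 0.140 without M1 replicate 2. For EDEM2 it was M1 replicate 1 (adjusted p = 0.0507) or replicate 3 (0.0536), and for DERL2 M1 replicate 1 (0.0562). DERL3 was under 1 CPM in every library, at 0.343, 0.335 and 0.438 CPM in the Ctrl libraries and 0.236, 0.186 and 0.386 CPM in M0. DERL3 had 0.178, 0.192 and 0.436 CPM in M1 and 0.271, 0.142 and 0.215 CPM in M2. Its M2 libraries lay below its Ctrl libraries, the other groups overlapped, and it passed in none of the 6 comparisons.

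Of the members of translocation, export or other ER tasks, 5 of 5 rose in M1 over M0 (background 25.5% higher). SEC61B, a subunit of the translocation channel, had 53.3, 63.7 and 66.1 CPM in the Ctrl libraries and 60.3, 74.2 and 59.2 CPM in M0. SEC61B had 84.6, 89.2 and 90.6 CPM in M1 and 76.5, 80.3 and 78.9 CPM in M2. Ctrl and M0 overlapped, and M1 lay above all others. It rose in M1 (log2 fold change 0.45 ± 0.11, adjusted p = 6.96e-04) and M2 (log2 fold change 0.28 ± 0.11, adjusted p = 0.0321) over M0, the second lost without M0 replicate 1 (adjusted p = 0.119), M0 replicate 3 (0.151), M2 replicate 1 (0.0517), M2 replicate 2 (0.101) or M2 replicate 3 (0.0924). WFS1, an ER membrane protein of calcium balance, had 19.5, 14.8 and 14.5 CPM in the Ctrl libraries and 11.6, 14.99 and 9.99 CPM in M0. WFS1 had 19.3, 16.1 and 23.9 CPM in M1 and 15.6, 17.1 and 17.8 CPM in M2. M0 was the lowest group, and the spread within M0 and M1 was wide. WFS1 rose in M1 over M0 (log2 fold change 0.71 ± 0.24, adjusted p = 0.00191). Its rise in M2 over M0 (log2 fold change 0.48 ± 0.18, adjusted p = 0.0454) was lost in 8 of the 12 removals of 1 library, with an adjusted p of up to 0.215, without M0 replicate 3. Its fall in M0 against Ctrl (log2 fold change -0.43 ± 0.22, adjusted p = 0.0311) was lost without Ctrl replicate 1 (-0.30, adjusted p = 0.155), M0 replicate 1 (0.0886) or M0 replicate 3 (0.129). SSR1, a subunit of the translocon-associated complex, fell in M0 (log2 fold change -0.38 ± 0.11, adjusted p = 5.27e-04) and rose in M1 over M0 (log2 fold change 0.51 ± 0.06, adjusted p = 5.76e-05). SEC24D, a cargo subunit of the COPII export coat, rose in M0 (log2 fold change 0.39 ± 0.05, adjusted p = 2.43e-05) and further in M1 (log2 fold change 0.55 ± 0.04, adjusted p = 1.89e-06). UFM1, a ubiquitin-like modifier of ER ribosomes, did likewise, by log2 fold changes of 0.72 (adjusted p = 6.41e-05) and 0.51 (adjusted p = 0.00163).

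Exons of 15 members share bases with an opposite-strand gene in GENCODE 29 (DNAJB9 with PNPLA8 and THAP5, HSP90B1 with C12orf73 and TTC41P, DERL3 with SMARCB1, CRELD2 with ALG12 and others), and exons of 5 with a gene on the same strand. The library kit keeps the strand, but whether counting used it is not given in the sources used here, so that reads of such pairs may not be told apart.

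Other genes of the same pathways, 96 in 7 lists that the members do not include, were tested in the same fit: in M1 over M0 41 were higher, 20 lower and 35 did not pass, at a median log2 fold change of 0.14, where 52.2% of all genes were called. Of the 96 genes 63.5% were called, and the degradation list at 55.6% and the UFMylation list at 57.1% lay near the background. Higher and lower calls were 11 and 4 of 23 lumenal folding genes, led by the thioredoxin-like TXNDC11 (0.78, adjusted p = 8.92e-07). They were 7 and 3 of 18 degradation genes, led by the lectin ERLEC1 (0.97, adjusted p = 4.10e-07), and 8 and 3 of 14 translocation genes, led by the signal recognition receptor subunit SRPRA (0.63, adjusted p = 6.71e-06). COPII coat genes were 9 higher and 0 lower of 11, led by SEC24A (0.67, adjusted p = 1.65e-06), and UFMylation genes 2 and 2 of 7, with the ligase UFL1 at 0.57 (adjusted p = 1.26e-04). Other regulators were 3 and 2 of 12, with the ER-anchored factor CREB3L1 at 1.82 (adjusted p = 8.22e-06), from 1.2 CPM in M0 to 4.20 CPM in M1. Of 11 genes around the EIF2AK3 arm 1 was higher and 6 lower, at a median log2 fold change of -0.21, while EIF2AK3 itself rose by 0.69. This list also holds kinases other than EIF2AK3, and the 1 higher gene was such a kinase. It was EIF2AK2 (PKR), a double-stranded RNA sensor and known interferon target, with 113 ± 4.08 CPM in M0 and 502 ± 42.2 CPM in M1 (log2 fold change 2.15 ± 0.08, adjusted p = 9.83e-12).

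In M0 against Ctrl 30 of the 96 were higher and 36 lower, at a median of -0.03, where 61.7% of all genes were called and 68.8% of the 96. The lists ran differently there, with 8 of 11 genes around the EIF2AK3 arm higher and 2 lower, and 8 of 11 COPII genes lower and 1 higher. CHAC1, an ATF4 target that degrades glutathione, had the largest change in the arm (6.95, adjusted p = 4.95e-14), and SEC13 that in the coat (-0.98, adjusted p = 1.37e-08). Lumenal folding genes were 3 higher and 9 lower of 23, with the chaperone ERP29 at 1.17 (adjusted p = 1.64e-10). Degradation genes were 4 and 8 of 18, with EDEM3, the relative of EDEM1, at -0.83 (adjusted p = 1.12e-06). Translocation genes were 6 and 5 of 14 (SEC63 0.68, adjusted p = 1.92e-06), UFMylation genes 3 and 2 of 7 (UFSP1 1.11, adjusted p = 6.42e-04), and other regulators 5 and 2 of 12, with the oxidative-stress factor NFE2L2 at 1.46 (adjusted p = 3.32e-11).

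**Figure D4:**
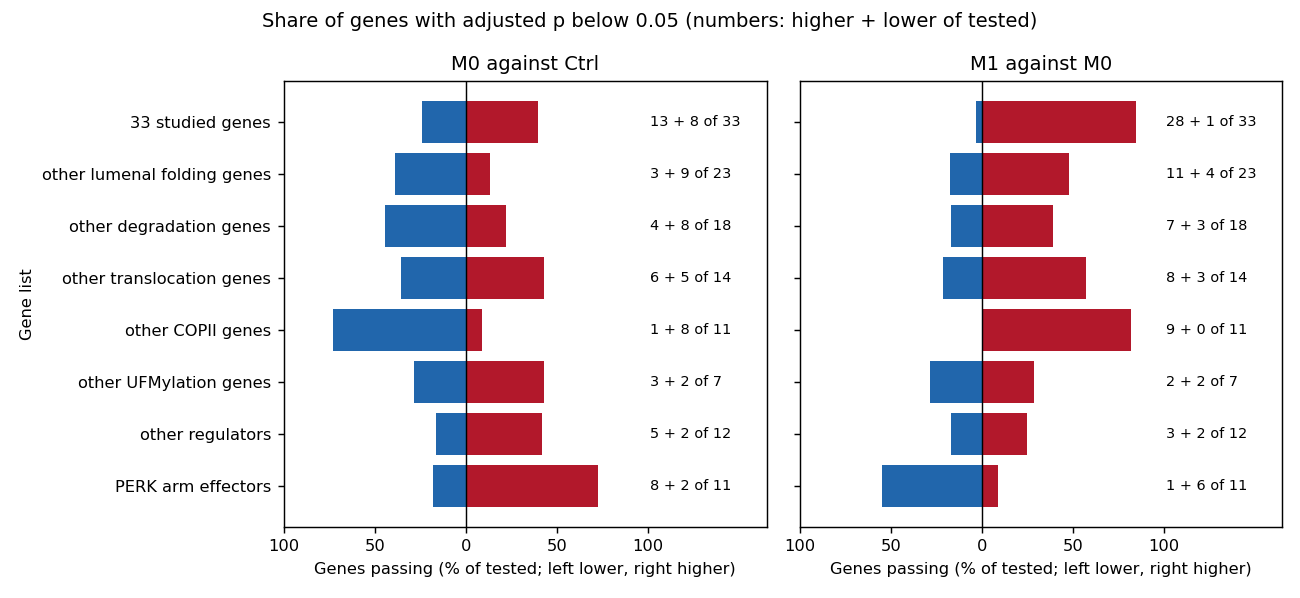
Percent of the members and of 7 lists of other pathway genes that passed the test as higher (right of 0) or lower (left of 0) in M0 against Ctrl and in M1 against M0, with the counts written beside each bar. In M1 against M0 the members show 28 higher and 1 lower of 33, and the genes around the EIF2AK3 arm 1 higher and 6 lower of 11.

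In M2 over M0, 7 of the 96 were higher and 16 lower, and in M1 over M2, 37 and 9. Against Ctrl, the M1 medium had 44 higher and 30 lower, and M2 had 28 and 39. The members' counts in the same comparisons were 3 and 1, 25 and 0, 23 and 1, and 19 and 9. Of all genes, the shares were 12.5% and 12.7%, 15.9% and 16.6%, 35.2% and 35.0%, and 34.1% and 32.4%. The members thus leaned more to the higher side than the 96, but the first pair carries little weight. It rests on 4 calls, of which 0 were kept in all alternative settings. XBP1 and EDEM1 lost theirs only without M0 replicate 3 and M2 replicate 2 together. Members and lists were chosen with earlier results of these data known, and whether they differ was not tested.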

How the data were processed

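RNA-seq was done in 12 MV3 libraries, 3 per group, from a stranded mRNA kit with single reads of 50 nt, each sequenced in 2 runs, per the labels' protocols. The values used are the raw counts per gene that the authors deposited; the authors' variance-stabilised log2 values, also deposited, gave gene names only. The submitters' processing notes name the build hg38, STAR 2.5.4b and Bowtie2 2.2.3, FastQC 0.11.7 with Trimmomatic 0.36, and DESeq2 1.20.0 beside R 3.5.0 and R 3.3.3. How reads were assigned to genes, by which annotation and with or without strand, is not given in the sources used here.

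Counts of 58288 genes were filtered with edgeR's filterByExpr (minimum count 10, total 15), which left 14088, and scaled by TMM. edgeR 4.0.16 (limma 3.58.1, R 4.3.3) fitted the 4 group means in 1 quasi-likelihood model over all 12 libraries, and 6 comparisons were tested with Benjamini-Hochberg adjustment over all genes at 0.05. Standard errors come from log2 CPM with a prior count of 2. The script was tested on simulated data. Levels per length divide CPM by the union of exons in GENCODE 29 (GRCh38), in which 31 of the 33 identifiers had the same version and MANF and SSR1 matched without it. Promoter stretches come from RefSeq and leave out annotated exons.

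The members and the lists of other genes and markers were chosen with earlier results of these data known. Values in every library are given for HSPA5, HSP90B1, XBP1, ERN1, EIF2AK3, ATF6 and DNAJB9, for the 5 largest changes in each comparison among members that passed the test without overlap (4 in M2 against M0), and for members under 1 CPM in every group. From each other list the largest change that passed the test in M1 against M0 and in M0 against Ctrl is named, and sequences are given for up to 6 members with an ER stress element. Alternatives were DESeq2 1.42.0, upper-quartile scaling, no filter, a filter of 1 CPM in 3 libraries, only the groups compared, a replicate block, each library left out in turn, and M0 replicate 3 and M2 replicate 2 left out together. Depth was 21788397 to 42921242 counts per library, and floors cover counting error only.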

Additional observations from a re-analysis of the deposited data

How the results depend on the processing

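Of the counts of members, those of M2 against M0 moved by more than 1.5 times, and the other 10 counts did not under any alternative. Its 3 higher members were 1 with DESeq2, 6 without a filter on low counts, and 0 without M0 replicate 3 and M2 replicate 2 together, and ranged from 1 to 8 with 1 library left out. At an unadjusted p under 0.05, edgeR had 1 higher and 1 lower without those libraries, and DESeq2 called 0. Its 1 lower member became 2 with only the groups compared and 0 without both libraries, and ranged from 1 to 2 with 1 library left out. The cause was not tested.

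With 1 library left out, higher members ranged from 26 to 29 in M1 against M0, 22 to 26 in M1 against M2, 12 to 16 in M0 against Ctrl, 21 to 24 in M1 against Ctrl and 17 to 19 in M2 against Ctrl. In all 19 alternatives, 25 of the members' 29 calls were kept for M1 over M0, 0 of 4 for M2 over M0 and 21 of 25 for M1 over M2. Relative to fresh medium the kept calls were 18 of 21 (M0), 22 of 24 (M1) and 24 of 28 (M2). Over the members' values, 3598 kept their side of the threshold, 110 lost it, 45 gained it and none changed sign while called.

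With the replicate number as a block, higher and lower members were 27 and 1 in M1 against M0, 4 and 1 in M2 against M0, 26 and 0 in M1 against M2, 13 and 8 in M0 against Ctrl, 23 and 1 in M1 against Ctrl, and 18 and 9 in M2 against Ctrl. The block ended 3 calls and gained 3 among 198 values. The pairing has no support in the labels. Deviations of 18 same-numbered pairs correlated at -0.08 to 0.15, 6 of them over 0.1, against -0.22 to 0.21 for other pairs. Of 12 libraries 8 correlated best with their own number among the 3 numbers, so that these values do not settle whether libraries were paired.

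DERL3, at under 1 CPM in every library, is limited by depth, and the filters left it out of some of the fits. The precision of every comparison is limited by 3 libraries per group.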
